A study of Rattus norvegicus with 9 samples.

Results

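Dusp1, Dusp4, Dusp5, Dusp6 and Dusp14, 5 genes of dual-specificity phosphatases that act on MAP kinases, were followed in rat adrenal cells given either of the main physiological stimuli of aldosterone secretion. The measurements were all probe sets of the array whose single annotated gene symbol is one of the 5, which gave 8 probe sets, 2 for Dusp1, 3 for Dusp6 and 1 for each of the others, among 14217 named genes and 31042 probe sets that were not controls. All 8 were bright enough to be among the 18625 probe sets tested. The cells came from the zona glomerulosa, the outer steroid-making layer of the rat adrenal cortex, and were used fresh after enzymatic and mechanical dispersion, then kept for 2 h at 37 °C in DMEM:F12 medium with serum albumin. Control tubes stayed under basal conditions, Ang II tubes received angiotensin II at 100 nM, and potassium tubes 16 mM potassium. Each of 3 independent cell preparations supplied 1 tube per group, so each group held 3 arrays (Affymetrix Rat Genome 230 2.0, 1 linear signal per probe set) and the series 9. The strain, sex and number of rats per preparation are not stated in the labels.

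MAP kinases are switched on by phosphorylation of a threonine and a tyrosine in their activation loop, and dual-specificity phosphatases switch them off by removing both phosphates. Several of these phosphatase genes are themselves transcribed in response to MAP kinase or calcium and cyclic AMP signals, which makes them early response genes and negative feedback elements. In glomerulosa cells Ang II signals through a G protein-coupled receptor that raises calcium and activates protein kinase C, while raised potassium depolarises the membrane and lets calcium in through voltage-gated channels.

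The 5 genes fell into 3 patterns after 2 h. Dusp1 and Dusp14 were higher after both stimuli, Dusp5 was higher after Ang II and lower after potassium, and Dusp4 and Dusp6 did not pass the test in any comparison. Of the 8 probe sets, 4 rose and none fell after Ang II, against 2.17% of all tested probe sets called in either direction, 1.64% higher and 0.526% lower. After potassium 3 rose and 1 fell, against 5.39% called, 2.80% higher and 2.59% lower. In Ang II against potassium 1 was higher and 1 lower, against 4.79% called, 3.10% higher and 1.70% lower. The 5 genes were chosen with earlier results of these data known, so these counts beside the shares are a description only. The calls are limma adjusted p-values under 0.05, Benjamini-Hochberg adjusted over all 18625 tested probe sets. Every fold change was taken on log2(signal + 16), so changes of dim probe sets come out too small, and errors are the standard error (SE) of the fit or the SD of 3 signals. At an unadjusted p under 0.05, 14.5% of all tested probe sets passed after Ang II, 18.8% after potassium and 16.2% between the stimuli. The number of arrays limits the precision. Both stimuli were compared with the same 3 control arrays, so the first and second comparisons are not independent.

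Without the block for the preparation the counts of called member probe sets were 3, 3 and 1 in place of 4, 4 and 2. Without control replicate 2, whose array median over all probe sets was 172.9 against 128.0 to 143.6 on the other 8 arrays, they were 3, 2 and 2. The count after Ang II fell to 2 without preparation 1, and no member probe set was called after Ang II without an intensity trend of the variance. Without that trend the counts after potassium and between the stimuli were 2 and 1. The count after potassium was 2 without control replicate 1, without potassium replicate 1 or 2, or without preparation 1, and the count in Ang II against potassium was 1 without Ang II replicate 1 or 2, potassium replicate 1 or 2, or preparation 1 or 2. Scaling the arrays to 1 common median moved the median log2 fold change of all tested probe sets from -0.03 to 0.09 after Ang II and from -0.02 to 0.10 after potassium. The calls over all probe sets then changed from 306 higher and 98 lower to 424 and 30 after Ang II, and from 521 and 483 to 719 and 180 after potassium, while the member counts were 3, 3 and 1.

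**Figure D1:**
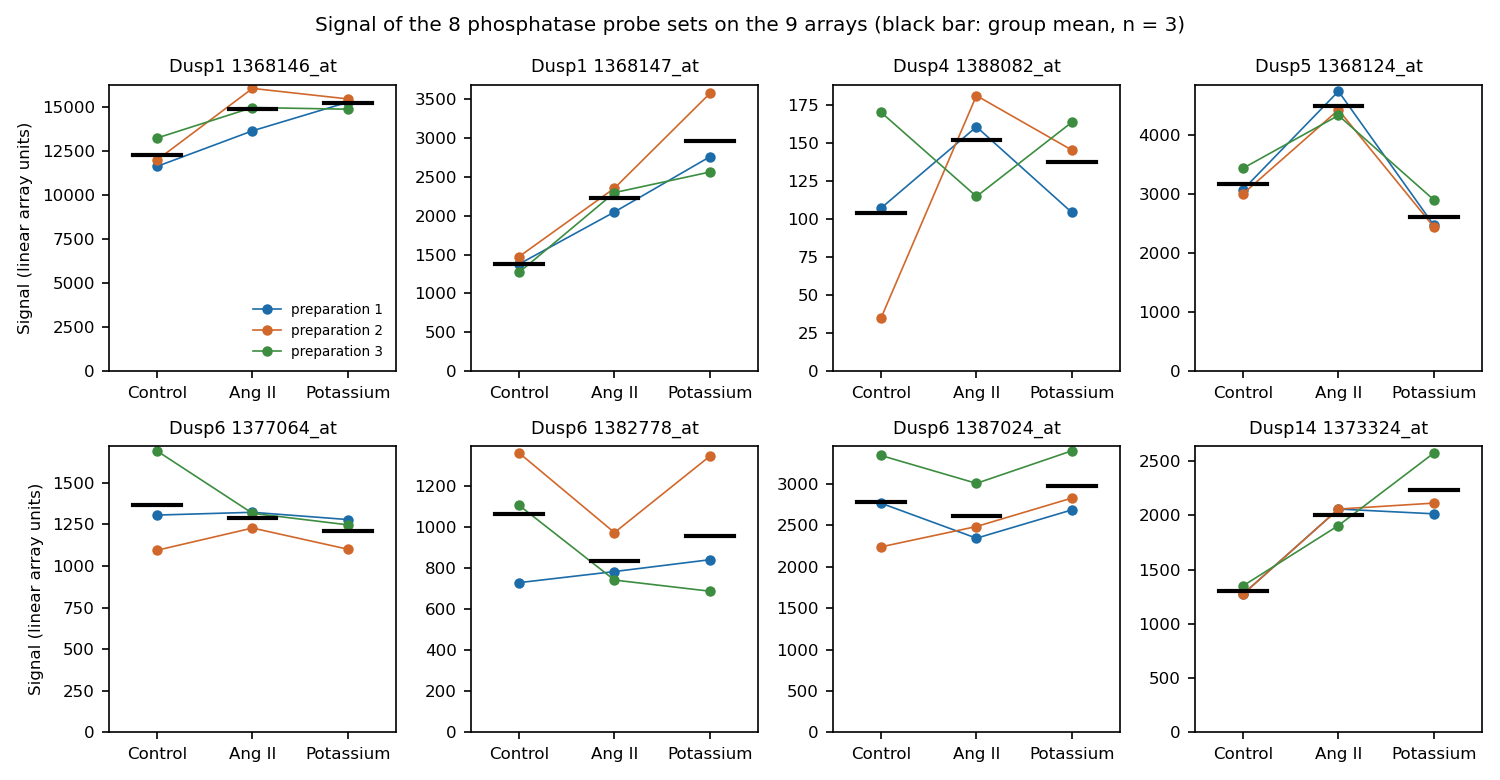
Signal (linear array units, each axis from 0) of the 8 probe sets of Dusp1, Dusp4, Dusp5, Dusp6 and Dusp14 in control, Ang II and potassium tubes. Points joined by a line are the 3 tubes of 1 cell preparation and black bars are group means (n = 3). Dusp1 and Dusp14 lie higher in both stimulated groups, Dusp5 is highest after Ang II at 4325 to 4733 and lowest after potassium at 2438 to 2895, and the 3 Dusp6 panels overlap between groups.

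Because Dusp1 and Dusp5 answered potassium in opposite directions and Dusp6 was called in neither stimulus, the 250 bases before the annotated start of these 3 genes are shown. They are RefSeq sequences of assembly GRCr8, read 5′ to 3′ on the plus strand, the strand of all 3 genes. Dusp1 lies at chr10:17184603-17184852, Dusp5 at chr1:262543524-262543773 and Dusp6 at chr7:35979354-35979603. Capitals mark every match, on either strand, to 5 motifs. These were the cyclic AMP response element TGACGTCA (CRE), its core TGACG, which the full element contains on both strands, the serum response factor element known as the CArG box, the AP-1 site TGACTCA, and the EGR site GCGTGGGCG.
Dusp1: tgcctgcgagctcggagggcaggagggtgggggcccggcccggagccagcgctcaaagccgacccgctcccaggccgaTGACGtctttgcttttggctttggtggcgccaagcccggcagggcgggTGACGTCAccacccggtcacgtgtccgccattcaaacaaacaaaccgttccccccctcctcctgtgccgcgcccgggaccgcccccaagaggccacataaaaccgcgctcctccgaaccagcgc
Dusp5: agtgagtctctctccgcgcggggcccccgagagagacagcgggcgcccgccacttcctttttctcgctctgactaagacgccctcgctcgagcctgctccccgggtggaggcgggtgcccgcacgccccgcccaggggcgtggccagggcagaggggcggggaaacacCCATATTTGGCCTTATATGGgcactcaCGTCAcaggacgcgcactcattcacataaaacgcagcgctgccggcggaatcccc
Dusp6: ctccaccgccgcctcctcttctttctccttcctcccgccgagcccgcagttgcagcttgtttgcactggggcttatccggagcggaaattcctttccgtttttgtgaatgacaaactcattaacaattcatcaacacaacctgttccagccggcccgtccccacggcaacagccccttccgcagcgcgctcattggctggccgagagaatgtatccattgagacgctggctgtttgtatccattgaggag
The Dusp1 window held 1 full CRE, from 124 to 117 bases before the start, and 1 further CRE core from 172 to 168 bases before it. The Dusp5 window held 2 adjoining CArG boxes, from 82 to 73 and from 72 to 63 bases before the start, and 1 CRE core on the minus strand from 55 to 51. The Dusp6 window held none of the 5 motifs. Among 33469 windows of the same 250 bases before annotated starts, 1.59% held a full CRE, 18.2% a CRE core, 1.5% a CArG box, 4.05% the AP-1 site and 0.478% the EGR site. Of the 3 annotated starts of Dusp14, 2 had no match, and the third had an AP-1 site from 89 to 83 and a CRE core from 77 to 73 bases before it. A match describes letters in this window and is not evidence that a factor bound there. Sequences were matched for 4 of the 5 genes, Dusp4 having no entry used here.

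Dusp1 encodes a nuclear phosphatase that acts on the kinases p38, JNK and ERK, and it is a classical immediate early gene. Both of its probe sets rose after both stimuli, with all 3 stimulated signals above all 3 control signals in each case. At the dimmer of its probe sets the control signals were 1377, 1474 and 1270 in preparations 1, 2 and 3. They were 2049, 2356 and 2299 after Ang II, a 1.62-fold increase (log2 fold change 0.70 ± 0.09, SE, adjusted p = 4.1e-04). After potassium they were 2761, 3577 and 2564, a 2.13-fold increase (1.09 ± 0.09, adjusted p = 2.2e-06). Every potassium signal lay above every Ang II signal, and the 2 stimulated groups differed, with a log2 difference, Ang II minus potassium, of -0.39 ± 0.09 (adjusted p = 0.019).

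That difference between the stimuli was less stable than the increases themselves. It did not pass without the preparation block (adjusted p = 0.13), without an intensity trend of the variance (0.20), with common median scaling (0.11), without Ang II replicate 1 (0.14) or 2 (0.13), without potassium replicate 1 (0.075) or 2 (0.14), or without preparation 1 (0.20) or 2 (0.18). The log2 difference was -0.43, -0.60 and -0.16 in preparations 1, 2 and 3, so potassium was the higher in each.

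The brighter Dusp1 probe set was at the 99.4th percentile of mean signal and showed smaller changes. Its control signals were 11605, 11971 and 13215, its Ang II signals 13624, 16030 and 14945, and its potassium signals 15248, 15432 and 14850. The increases were 1.21-fold after Ang II (0.28 ± 0.07, adjusted p = 0.042) and 1.24-fold after potassium (0.31 ± 0.07, adjusted p = 0.012). Here the 2 stimulated groups overlapped and did not pass the test against each other (-0.03 ± 0.07, adjusted p = 0.88, 95% interval -0.17 to 0.11). Within each preparation the log2 increase at the dimmer probe set exceeded that at the brighter one by 0.34, 0.25 and 0.67 after Ang II and by 0.60, 0.90 and 0.84 after potassium. The highest signals on the arrays, between 33568 and 42803, came from other probe sets and lay above every signal of the brighter Dusp1 probe set. They do not show whether its signals were compressed, and the cause of its smaller changes was not tested.

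The call of the brighter probe set after Ang II rested on few settings, and 17 of 23 alternatives ended it. Its adjusted p was 0.14 without the preparation block and 0.092 with common median scaling. Among left-out arrays it was 0.14 and 0.15 without control replicates 1 and 2, 0.092, 0.24 and 0.12 without Ang II replicates 1, 2 and 3, and 0.051, 0.055 and 0.056 without potassium replicates 1, 2 and 3. It was 0.20, 0.24 and 0.079 without preparations 1, 2 and 3. After potassium the call ended without an intensity trend (0.20), without control replicate 1 (0.062) or 2 (0.053), potassium replicate 1 (0.10) or 2 (0.052), or preparation 1 (0.17). At the dimmer probe set the call after potassium held in all 23 alternatives, and that after Ang II in 22, ending without an intensity trend (adjusted p = 0.11).

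Dusp5 encodes a nuclear phosphatase that is selective for ERK. Its 1 probe set moved in opposite directions under the 2 stimuli, and the 3 groups did not overlap. Control signals were 3068, 2998 and 3431 in preparations 1, 2 and 3. After Ang II they were 4733, 4419 and 4325, and after potassium 2466, 2438 and 2895, so each preparation ran in the order potassium, control, Ang II. The gene rose 1.42-fold after Ang II (0.50 ± 0.08, adjusted p = 0.0020). It fell by 0.28 ± 0.08 on the log2 scale after potassium (adjusted p = 0.048), a 1.22-fold decrease.

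The direct comparison was the firmest result for Dusp5. Its signal was 1.73-fold higher after Ang II than after potassium (0.79 ± 0.08, adjusted p = 2.2e-05), by 0.94, 0.85 and 0.58 in preparations 1, 2 and 3. This call held in all 23 alternatives, with log2 differences from 0.72 to 0.90. The increase after Ang II held in 21, ending without preparation 1 (adjusted p = 0.084) and without an intensity trend (0.16).

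The decrease after potassium kept its sign in all 23 alternatives, but 16 of them ended its call. Its adjusted p was 0.15 without the preparation block, and with common median scaling the log2 fold change was -0.16 (0.47). It was 0.10, 0.12 and 0.17 without control replicates 1, 2 and 3, 0.059 and 0.058 without Ang II replicates 1 and 2, and 0.21 and 0.18 without potassium replicates 1 and 2. Without preparations 1, 2 and 3 it was 0.24, 0.17 and 0.080.

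**Figure D2:**
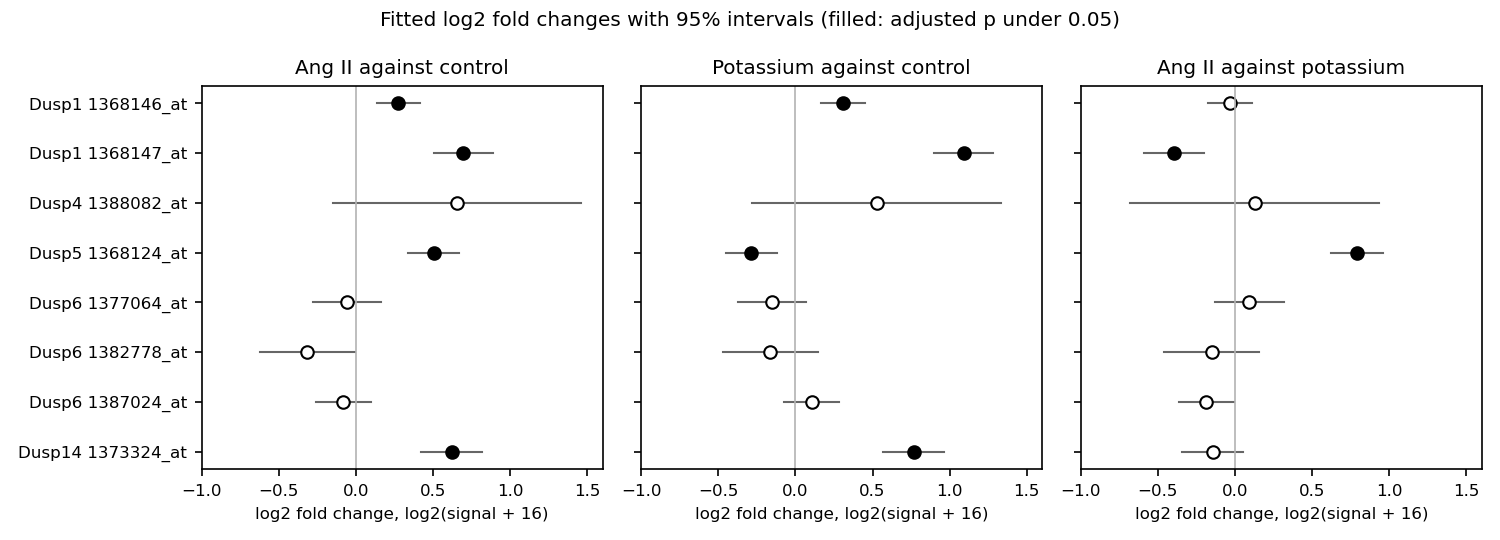
Fitted log2 fold change (x axis, log2(signal + 16) scale) with its 95% interval for each probe set (y axis) in the 3 comparisons, filled where the adjusted p was under 0.05. Dusp5 lies right of 0 at 0.50 after Ang II, left of 0 at -0.28 after potassium and at 0.79 between the stimuli, while the interval of Dusp4 is the widest of the 8.

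Dusp14 encodes a small atypical phosphatase that lacks the N-terminal kinase-docking domain of the typical family members. Its control signals, 1274, 1273 and 1350, were close together. After Ang II they were 2057, 2057 and 1906, and after potassium 2014, 2112 and 2573, all above the controls. The gene rose 1.54-fold after Ang II (0.62 ± 0.09, adjusted p = 0.0014) and 1.70-fold after potassium (0.77 ± 0.09, adjusted p = 1.0e-04). The 2 stimulated groups overlapped, and their difference of -0.15 ± 0.09 did not pass the test (adjusted p = 0.50, 95% interval -0.34 to 0.05). The call after potassium held in all 23 alternatives and that after Ang II in 22, ending without an intensity trend (adjusted p = 0.13).

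Dusp4 encodes a nuclear phosphatase closely related to Dusp1. It was the dimmest of the 8 probe sets, at the 48.9th percentile, close above the filter for testing at the 40th. Its control signals of 107, 34.8 and 170 spread more widely than those of the stimulated groups, which were 160, 181 and 115 after Ang II and 104, 145 and 163 after potassium. All 3 groups overlapped. The log2 fold changes of 0.66 ± 0.38 after Ang II (adjusted p = 0.46, 95% interval -0.15 to 1.46) and 0.53 ± 0.38 after potassium (adjusted p = 0.50, -0.28 to 1.33) both depended on the low control signal of preparation 2. Without control replicate 2 they were 0.05 and -0.08. The 95% intervals include 0 as well as the changes measured for Dusp14.

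Dusp6 encodes the cytoplasmic phosphatase selective for ERK and is widely used as a readout of ERK activity. None of its 3 probe sets passed limma's test in any of the 3 comparisons, and at an unadjusted p of 0.05 there was 1 after Ang II, none after potassium and 1 between the stimuli, against 14.5%, 18.8% and 16.2% of all tested probe sets. At the brightest of them control signals were 2766, 2239 and 3342, Ang II signals 2344, 2485 and 3005, and potassium signals 2685, 2828 and 3398. Preparation 3 was the highest in each group, and the groups overlapped. The log2 fold change was -0.08 ± 0.08 after Ang II (95% interval -0.26 to 0.10) and 0.11 ± 0.08 after potassium (-0.07 to 0.29), so increases of the size seen for Dusp5 after Ang II or Dusp14 lay outside both intervals.

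The other Dusp6 probe sets gave small or negative values. At the second brightest the group means were 1364 ± 302 (SD, n = 3) in controls, 1289 ± 52.9 after Ang II and 1209 ± 95.01 after potassium, with log2 fold changes of -0.06 ± 0.10 and -0.15 ± 0.10. At the dimmest they were 1065 ± 318, 832 ± 123 and 957 ± 344, with -0.31 ± 0.14 (adjusted p = 0.34, 95% interval -0.62 to -0.01) and -0.16 ± 0.14. In Ang II against potassium the values, from the brightest to the dimmest, were -0.19 ± 0.08 (adjusted p = 0.29), 0.09 ± 0.10 and -0.15 ± 0.14. The 3 probe sets followed each other only loosely over the 9 arrays. After removing each preparation's mean, their Pearson correlations were 0.05, 0.07 and 0.49, against 0.87 between the 2 probe sets of Dusp1, values over arrays that share preparations and given as a description.

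Counting only whether the 3 signals of one group lay wholly above or below those of the other, 4 of the 8 member probe sets were separated after Ang II, where 15.0% of all tested probe sets were. After potassium 4 were separated (17.6% of all), and between the stimuli 2 (18.7% of all). As the genes were chosen with earlier results of these data known, these counts too are a description only.

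**Figure D3:**
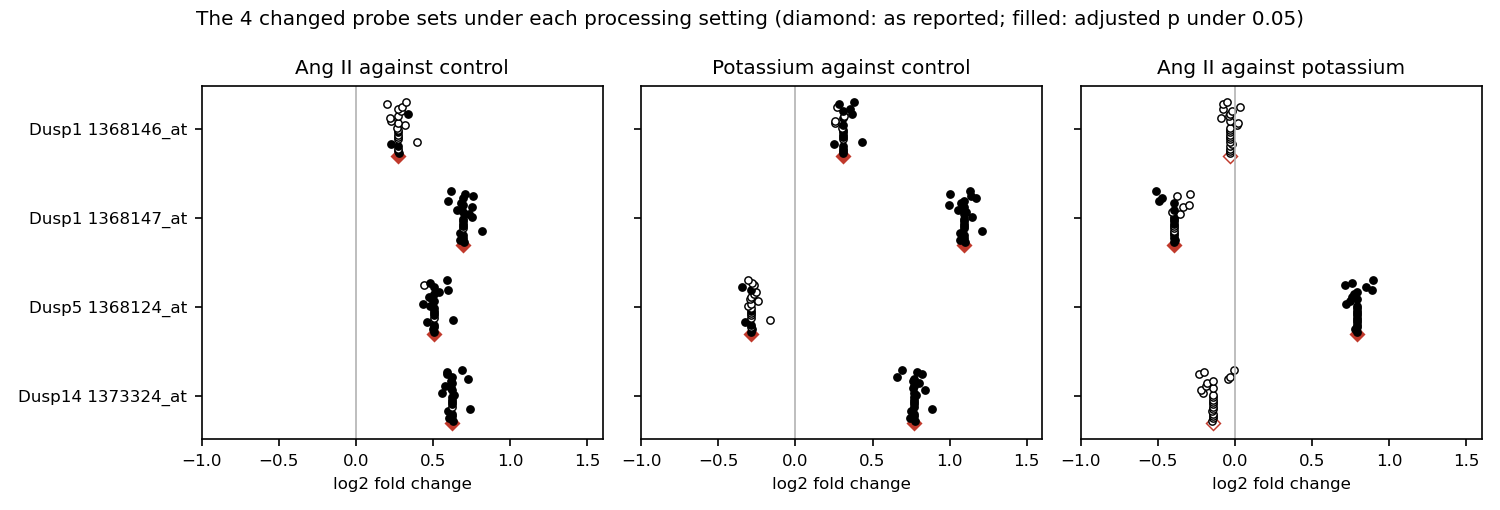
Log2 fold change (x axis) of the 4 changed probe sets of Dusp1, Dusp5 and Dusp14 (y axis) as reported (diamond) and under 23 alternative settings (circles), filled where the adjusted p was under 0.05. For Dusp5 all circles are filled between the stimuli, at 0.72 to 0.90, and most are open for potassium against control.

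In the rest of the phosphatase family 1 further gene, Dusp7, passed the test. Of the 10 typical MAP kinase phosphatases, 9 had a tested probe set (all but Dusp16). After Ang II 2 rose, Dusp1 and Dusp5, and none fell, against 1.64% and 0.526% of all tested probe sets. The median log2 fold change was 0.29 against -0.03 for all tested probe sets. That median was the value of Dusp2, which did not pass the test (adjusted p = 0.45). Of the larger values only that of Dusp5 passed, and those of Dusp4, Dusp9 and Dusp10 had wide errors. After potassium Dusp1 rose and Dusp5 and Dusp7 fell (median 0.11 against -0.02), against 2.80% higher and 2.59% lower of all tested probe sets. Dusp7, a cytoplasmic phosphatase of ERK related to Dusp6, had signals of 676 ± 92.9 in controls, 648 ± 44.5 after Ang II and 499 ± 21.8 after potassium (-0.42 ± 0.11, adjusted p = 0.039). Its call after potassium ended in 18 of 23 alternatives, among them common median scaling (adjusted p = 0.21), the fit without the preparation block (0.12), and each of the 9 arrays and 3 preparations left out in turn (0.051 to 0.22).

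Dusp2, a nuclear phosphatase of immune cells, had log2 fold changes of 0.29 ± 0.16 after Ang II and -0.06 ± 0.16 after potassium, and Dusp10, which acts on p38 and JNK, 0.47 ± 0.25 and 0.08 ± 0.25. Dusp8 (-0.04 ± 0.28 and 0.20 ± 0.28) and Dusp9 (0.56 ± 0.34 and 0.48 ± 0.34) were dim and imprecise. None of these passed the test. In the atypical family 11 of 19 genes were tested, and Dusp14 was the 1 that passed after either stimulus (medians -0.02 and -0.07). The largest other value was that of Dusp23 after potassium, 0.80 ± 0.30 (adjusted p = 0.16). Over the 17 tested probe sets of the 15 other family genes, which include Dusp3, Dusp11, Dusp12, Dusp18, Dusp19, Dusp22, Ptpmt1, Styx and Styxl1, limma called none after Ang II (none at an unadjusted p of 0.05 either, against 14.5% of all), with log2 fold changes from -0.71 to 0.56. After potassium it called 1, that of Dusp7 (2 at an unadjusted p of 0.05), with a range of -0.42 to 0.80, and between the stimuli none (2 at an unadjusted p of 0.05). Several of these values were as large as the called change of Dusp5 after Ang II but had wide errors, so a change of that size is not excluded for them. Dusp18 had the lowest of them after Ang II, -0.71 ± 0.38 and -0.66 ± 0.33 at its tested probe sets (adjusted p = 0.42 and 0.39). Dusp13b, Dusp15, Dusp26 and Epm2a were too dim to be tested.

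**Figure D4:**
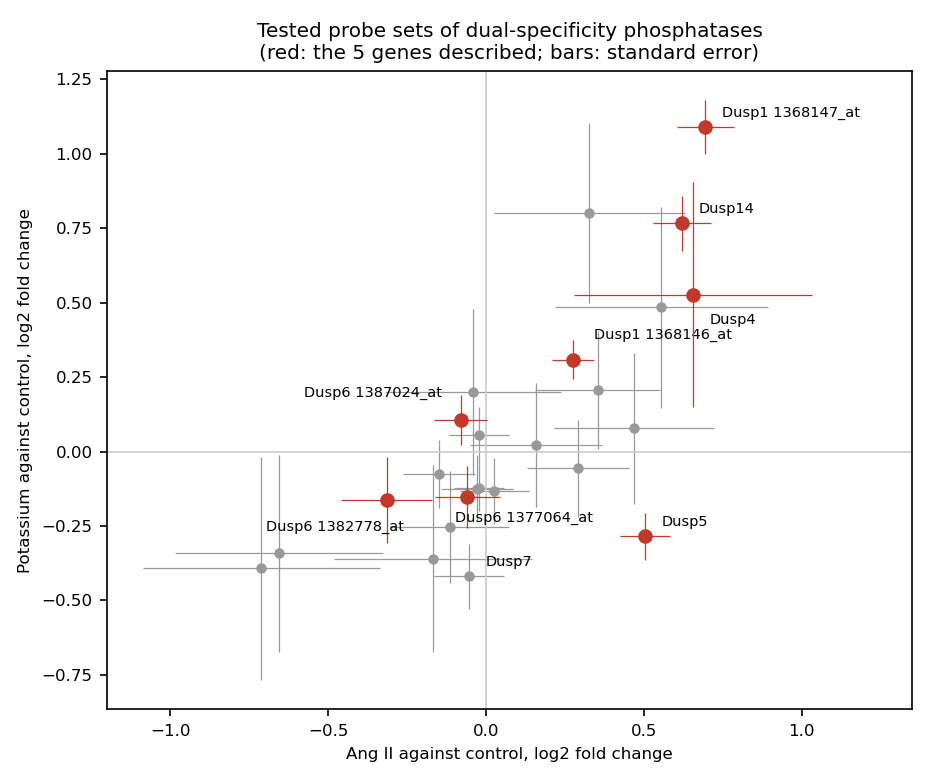
Log2 fold change after Ang II (x axis) and after potassium (y axis) of each tested probe set of the dual-specificity phosphatase family, with SE bars, the 5 genes described here in red and the others in grey. Dusp1 and Dusp14 lie in the upper right, Dusp5 at 0.50 and -0.28 in the lower right. Both axes share the control arrays, so the values on them are not independent.

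Other genes of the MAP kinase pathway were summarised by lists, with 1 probe set per gene, the brightest tested. Among 10 tested genes of other phosphatases of MAP kinases, such as the protein tyrosine phosphatases and phosphatase 2A subunits, limma called none in any comparison, and at an unadjusted p of 0.05 there were 2 higher after Ang II, 1 after potassium and 3 between the stimuli, of 10 each, against 14.5%, 18.8% and 16.2% of all tested probe sets in either direction. Among 8 tested MAP kinase genes none was called after Ang II, with 2 higher and 1 lower at an unadjusted p of 0.05. After potassium Nlk rose (0.33 ± 0.09, adjusted p = 0.044) and Mapk7, the gene of the kinase ERK5, fell from 156 ± 70.5 to 38.9 ± 26.5 (-1.67 ± 0.38, adjusted p = 0.018). Mapk7 was also higher after Ang II than after potassium (1.72 ± 0.38, adjusted p = 0.016). Its 3 potassium signals, 29.7, 18.3 and 68.8, lay below the filter at 87.1, so it was tested only because the other groups were brighter, and its folds and p-values support nothing by themselves. The call of Nlk ended in 17 of 23 alternatives, and both calls of Mapk7 in 7 of 22. Of 13 tested MAP kinase-activated kinases and scaffolds limma called none in any comparison, with 0, 2 and 0 at an unadjusted p of 0.05.

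Upstream, 1 of 13 tested MAP kinase kinases and Raf genes rose after Ang II and none fell (median -0.03, as for all tested probe sets). Of all tested probe sets 1.64% rose and 0.526% fell. Map3k4, a kinase above p38 and JNK, rose by 0.96 ± 0.10 after Ang II (adjusted p = 5.0e-05) and 0.50 ± 0.10 after potassium (adjusted p = 0.0073). Map2k3, an activator of p38, fell by 0.29 ± 0.07 after potassium (adjusted p = 0.022), a call that 10 of 23 alternatives ended, as 4 did that of Map3k4 after potassium. In Ang II against potassium Map2k1, Map2k3 and Map3k4 were higher, by 0.35, 0.50 and 0.46. The call of Map2k1 ended in 12 of 23 alternatives, among them the fit without the preparation block, common median scaling and each preparation left out, that of Map3k4 in 4 and that of Map2k3 in 1.

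Among 10 tested ERK feedback genes outside the phosphatase family, 3 rose after Ang II and none fell (median 0.30 against -0.03), against 1.64% and 0.526% of all tested probe sets. They were Spry2 (0.85 ± 0.07, adjusted p = 7.0e-06), an inhibitor of receptor tyrosine kinase signalling, Errfi1 (0.71 ± 0.08, adjusted p = 9.2e-05), an inhibitor of the EGF receptor, and the pseudokinase gene Trib1 (0.46 ± 0.10, adjusted p = 0.031). After potassium none of the 3 passed the test, with values of 0.08 ± 0.07, -0.08 ± 0.08 and 0.02 ± 0.10, and 1 gene rose, Peli1 (0.35 ± 0.08, adjusted p = 0.024). In Ang II against potassium the 3 were higher by 0.78, 0.79 and 0.44, the differences for Spry2 and Errfi1 being close in size to that of Dusp5 (0.79). The calls of Trib1 after Ang II and against potassium ended in 12 and 10 of 23 alternatives, and that of Peli1 after potassium in 10. Peli1 had a similar value after Ang II, 0.31, which did not pass the test (adjusted p = 0.086), though it passed in 1 of 23 alternatives. Its difference between the stimuli was -0.05 (adjusted p = 0.86).

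Of 23 tested genes listed as early transcription factors dependent on ERK, 8 rose and 1 fell after Ang II. After potassium 5 rose and 5 fell, and between the stimuli 7 were higher and 5 lower. The medians, in that order, were 0.20, -0.03 and 0.12. Of all tested probe sets 1.64% rose and 0.526% fell after Ang II, and 2.80% and 2.59% after potassium. Between the stimuli 3.10% were higher and 1.70% lower. ERK activity itself was not measured. Some of the 23 genes behaved like Dusp5. The zinc-finger factor gene Egr4 rose by 1.29 ± 0.10 after Ang II and fell by 0.83 ± 0.10 after potassium (adjusted p = 4.1e-06 and 1.0e-04), the latter ending without the preparation block (adjusted p = 0.10). Egr1 rose by 0.41 ± 0.06 and fell by 0.24 ± 0.06 (adjusted p = 0.0011 and 0.027), and 14 of 23 alternatives ended the second call. Others rose after both stimuli, as Dusp1 did. Junb rose by 0.46 ± 0.08 and 1.11 ± 0.08, and Klf4 by 0.52 ± 0.08 and 1.00 ± 0.08. Both were lower after Ang II than after potassium (adjusted p = 1.3e-04 and 0.0013), as Dusp1 was at its dimmer probe set only. Their calls between the stimuli ended in 1 and 2 of 23 alternatives. Klf10, the 1 gene that fell after Ang II, behaved like neither (-0.89 ± 0.10, adjusted p = 1.0e-04). After potassium it had -0.30 ± 0.10 (adjusted p = 0.094). Fosl1 fell by 1.19 ± 0.10 after potassium (adjusted p = 2.8e-06). Its 0.39 ± 0.10 after Ang II did not pass the test (adjusted p = 0.061), though it passed in 6 of 23 alternatives. Fosl1 was higher after Ang II than after potassium by 1.59 ± 0.10 (adjusted p = 2.3e-07), a call that held in all 23.

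The genes most like each member were taken as those with the highest Pearson correlation over the 9 arrays after removing each preparation's mean, among all tested probe sets with 1 symbol. Such values, from 9 arrays of 3 preparations, describe these arrays only. Dusp5 was most like Gbp2 (0.99), Bcr (0.99) and Egr1 (0.98), which had log2 fold changes of 0.37, 0.41 and 0.41 after Ang II and -0.25, -0.27 and -0.24 after potassium. Dusp1, at its brighter probe set, was most like Nr4a1 (0.99), Eif3a (0.98) and Lpar1 (0.98), and Nr4a1, an orphan nuclear receptor gene, changed by 0.80 and 0.82. Dusp14 was most like Nxf1 (0.99), Osgin2 (0.98) and Ppp1r15a (0.98), with changes from 0.23 to 0.60 after Ang II and from 0.27 to 0.80 after potassium. Dusp6 was nearest to Ormdl2, Arpp19 and Ccnjl and Dusp4 to Akr1b1, Ist1 and Ttyh1, all at 0.98. Among the members themselves, Dusp1 and Dusp14 correlated at 0.86, Dusp1 and Dusp5 at 0.05, and Dusp5 and Dusp6 at -0.66.

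The labelled cell type was checked on marker genes. Of 13 zona glomerulosa markers 12 were measured and tested, with Dab2 at 11700 ± 285 and Vsnl1 at 6163 ± 754 in controls (SD, n = 3). The dimmest of the 12 in controls were Kcnk9 at 105 ± 84.2 and Shh at 76.7 ± 50.1, close to the filter for testing. After Ang II Star, the cholesterol carrier of steroid synthesis, rose and Wnt4 fell among the 12 (median -0.01), and after potassium Star rose (median 0.13). In Ang II against potassium Wnt4 was called lower and the median was -0.14, with 6 of the 12 lower at an unadjusted p of 0.05, and the part of this shift in the Dusp5 difference was not tested. Of 3 tested fasciculata markers, Mrap, an accessory protein of the ACTH receptor, rose after both stimuli. Control signals were 28312 ± 1030 for Akr1b7, 4039 ± 920 for Mrap and 3302 ± 1704 for Cyp11b1, and the summed signal of the 4 measured fasciculata markers ran from 32774 to 39271 in controls, 36925 to 39416 after Ang II and 36003 to 40589 after potassium. Cyp11b2 and Mc2r were not analysed here. Transcripts of other cells were also present, such as the endothelial gene Kdr at 7624 ± 731 and the macrophage gene Lyz2 at 6732 ± 1362, while Cyp17a1, a fasciculata marker that rat adrenals hardly express, was at 10.96 ± 8.35 and below the filter. The summed signal of 9 measured endothelial markers ran from 27291 to 34617 in controls, 27612 to 34224 after Ang II and 29544 to 35772 after potassium. The sums of 10 macrophage markers were 8744 to 12525, 9011 to 12033 and 7609 to 12035, of 9 medulla markers 2600 to 3456, 2562 to 3228 and 2446 to 3670, and of 9 fibroblast and capsule markers 19240 to 22560, 18443 to 22938 and 21172 to 24136. These ranges overlapped between the groups. Among 8, 9, 7 and 9 tested genes of these lists limma called none in any comparison. At an unadjusted p of 0.05 there were 0, 1, 1 and 0 after Ang II, 1, 2, 1 and 2 after potassium, and 0, 1, 0 and 1 between the stimuli, against 14.5%, 18.8% and 16.2% of all tested probe sets. In RNA from mixed cells a change in the number of cells of a type and in RNA per cell cannot be told apart, and their part in the phosphatase values was not tested.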

How the data were processed

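The authors deposited 1 linear signal intensity per probe set and array for 31099 probe sets, made with GCOS, the array maker's software, per the submitters' processing notes. The GCOS version is not given in the sources used here, nor how background was removed. Each array's trimmed mean of these values was close to 500.0, so no further scaling was applied. Array medians over all probe sets lay between 128.0 and 172.9, and over the tested ones between 392.5 and 426.2.

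The 57 control probe sets were left out. Names came from the platform annotation, updated through Entrez identifiers to RefSeq symbols of GRCr8. Probe sets with a mean signal above the 40th percentile (87.1) were tested. Values were log2(signal + 16), fitted with limma 3.58.1 in R 4.3.3 (eBayes with an intensity trend) on all 9 arrays, with group and cell preparation as terms, 4 residual and 10.7 prior degrees of freedom, and Benjamini-Hochberg adjustment. The fit was tested on simulated data.

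The pairing comes from the design text. Deviations from group means of arrays of 1 preparation correlated at 0.11 to 0.27 (9 pairs) and of different preparations at -0.21 to 0.04. Whether the preparations came from separate animals is not stated. With the preparation in the fit, the p-values measure how the group differences vary between preparations, with the variance drawn towards its intensity trend. Members, the 14 lists (188 genes, 165 with a probe set) and the rules for named genes were chosen with earlier results of these data known. All tested probe sets of members are given, and those of the rest of the phosphatase family by value or within a range. Of each other list, those named were among the 4 genes with the smallest p in a comparison, the 3 genes most like each member were named, and some marker genes were named by level. The 23 alternatives changed the pseudocount, filter, scaling, variance trend and block or left out arrays, and 1 of them, a filter on mean log2 values, was chosen after seeing the data.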

Additional observations from a re-analysis of the deposited data

How the results depend on the processing

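The alternatives that ended a member's call stand beside its result, and 3 arrays per group limit the precision. Those of the Star, Wnt4, Mrap, Etv1 and Srf calls were not run. Without the intensity trend of the variance, limma called 32, 256 and 155 of all tested probe sets for Ang II and for potassium over control and for Ang II over potassium, in place of 404, 1004 and 893, and 0, 2 and 1 of the member probe sets. Without the preparation block it called 193, 499 and 442, and 3, 3 and 1 of the members. With common median scaling the counts in Ang II against potassium were 553 and 1. Leaving out an array or a preparation gave 145 to 443, 446 to 972 and 270 to 1006 probe sets, and 2 to 4, 2 to 4 and 1 to 2 members. The lowest of these all-probe-set counts came without preparation 1. No setting turned the sign of a called member value. Uncalled values turned sign, and the cause was not tested. After Ang II, common median scaling gave Dusp6 0.063 at its second brightest and 0.042 at its brightest probe set. With arrays or preparations left out, the second brightest ran from -0.17 to 0.091 after Ang II. After potassium Dusp4 ran from -0.083 to 0.96, and Dusp6 from -0.36 to 0.092 at its dimmest and -0.0092 to 0.18 at its brightest probe set. In Ang II against potassium the brighter Dusp1 probe set ran from -0.091 to 0.032, Dusp4 from -0.24 to 0.57 and the dimmest Dusp6 probe set from -0.34 to 0.0033. The filter at the 60th percentile removed Dusp4.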

Other observations

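Several genes that are often read together with Dusp6 as signs of ERK activity were looked up after the values of Dusp6 had been seen. Spry4, a sprouty inhibitor, had log2 fold changes of 0.18 ± 0.10 after Ang II and 0.06 ± 0.10 after potassium (SE), and the ETS factor gene Etv5 had -0.09 ± 0.13 and 0.00 ± 0.13. None of the 4 values passed limma's test. Etv1 had 0.11 ± 0.10 after Ang II and rose by 0.37 ± 0.10 after potassium (adjusted p = 0.037), though its potassium and control signals overlapped. Etv4 was too dim to be tested. Srf, the gene of the serum response factor, which binds CArG boxes, was likewise chosen after its values were seen. It had 0.06 ± 0.09 after Ang II and fell by 0.60 ± 0.09 after potassium (adjusted p = 6.2e-04). Its signal was 1919 ± 266 in controls and 1269 ± 231 after potassium (SD, n = 3). Any link of Srf to the Dusp5 values was not tested.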
